A study of Mus musculus with 9 samples.

Results

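Genomic imprints are DNA methylation marks that a gene copy carries from only one parent, and the 3 regions described here are those that carry the mark on the copy inherited from the father: the control region of H19 on chromosome 7, the intergenic region between Dlk1 and Meg3 on chromosome 12, and the region upstream of Rasgrf1 on chromosome 9. They were taken by fixed mm9 intervals, chr7:149766100-149768450, chr12:110764900-110767100 and chr9:89770000-89775000, and by the CpG sites inside them that were listed in both pools of reads. These held 41, 43 and 45 sites, 129 in all, of 11380646 sites listed in both pools over the series. A site listed in either pool was counted separately, which gave 223 sites. Bisulfite sequencing, which reads unmethylated cytosines as T, covered the whole genome of primordial germ cells, the precursors of eggs and sperm, from female C57BL/6 embryos at embryonic day 13.5. There were 5 Tet1 -/- (Tet1-null) libraries of 1400 to 4700 cells and 4 wild-type (WT) libraries of 1575 to 5251 cells. The deposited values were 1 table per genotype that pools its libraries, so every difference is between 2 pools, has no replicate check, and carries an interval for counting error only. The labels name no allele beyond the genotype, no sort of the cells and no separate embryo per library. Maternal and paternal copies are not separated in these tables.

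A paternal imprint is laid down in the male germ line and kept in the cells of the body, where it blocks binding of CTCF at the H19 control region, so that the paternal copy expresses Igf2 and not H19. At the Dlk1-Meg3 region it keeps Meg3, a long noncoding RNA, silent on the paternal copy while Dlk1 is expressed, and at Rasgrf1, which encodes a guanine nucleotide exchange factor for Ras, it goes with expression of the paternal copy. Primordial germ cells of both sexes erase these marks so that new ones can be set, and Tet1, which oxidises 5-methylcytosine, is one of the enzymes studied in that erasure. The comparison asks how much of the 3 marks is left at this age with and without Tet1.

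The sequence of the 3 regions was not used here. Starts of genes that they are known to control are shown instead, since methylation was read there too: each is the RefSeq sequence of build GRCm38.p6 from 250 bases before to 50 after the start, 5′ to 3′ along the gene, with CpGs in capitals, placed on the mm9 positions of the tables by the spacing of its CpGs alone. For Meg3, 10 of 13 CpGs were listed at chr12:110778956-110779255 (plus strand), with 5 at the next best place of the chromosome and no listed site off a CpG. For Rasgrf1, 14 of 26 were listed at chr9:89804363-89804662 (plus strand), against 6 at the next best place. For 1 start of Igf2, which encodes a fetal growth factor, all 14 were listed at chr7:149847127-149847426 (minus strand), against 5.
Meg3: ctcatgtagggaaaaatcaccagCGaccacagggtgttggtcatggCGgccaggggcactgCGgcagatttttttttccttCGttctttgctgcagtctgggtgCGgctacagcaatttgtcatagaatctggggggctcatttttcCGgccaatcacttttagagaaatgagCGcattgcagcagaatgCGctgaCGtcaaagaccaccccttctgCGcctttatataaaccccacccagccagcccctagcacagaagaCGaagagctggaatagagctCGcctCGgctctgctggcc
Rasgrf1: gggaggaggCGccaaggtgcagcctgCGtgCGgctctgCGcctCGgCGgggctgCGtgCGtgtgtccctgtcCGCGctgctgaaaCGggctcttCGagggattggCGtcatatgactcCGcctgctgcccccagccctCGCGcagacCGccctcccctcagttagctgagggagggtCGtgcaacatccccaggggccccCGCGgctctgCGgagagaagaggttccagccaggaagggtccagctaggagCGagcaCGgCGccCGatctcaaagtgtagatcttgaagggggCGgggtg
Igf2: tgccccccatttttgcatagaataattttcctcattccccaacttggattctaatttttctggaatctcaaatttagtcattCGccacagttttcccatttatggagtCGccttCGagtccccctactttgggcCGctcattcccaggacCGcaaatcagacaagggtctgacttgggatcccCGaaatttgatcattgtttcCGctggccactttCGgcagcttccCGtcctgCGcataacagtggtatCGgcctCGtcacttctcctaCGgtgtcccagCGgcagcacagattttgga

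Almost no methylated read was left at the 3 regions in WT germ cells, and few in Tet1-null germ cells. Over the 129 sites listed in both pools, 15 of 347 Tet1-null reads were methylated, against 4 of 242 WT reads, where a read counts once at each site that it covers. The levels were 4.32% in the Tet1-null pool (Wilson 95% interval 2.64 to 7.01%) and 1.65% in the WT pool (0.645 to 4.17%). The difference was 2.67 points, with a Newcombe 95% interval of -0.361 to 5.54 that included 0. Autosomes as a whole were at 3.95% in the Tet1-null pool and 3.33% in the WT pool at such sites, values that lie inside the intervals of the 3 regions. With every listed site, methylated reads were 38 of 493 in the Tet1-null pool, 7.71%, and 5 of 345 in the WT pool, 1.45%. The difference was 6.26 points (3.47 to 9.08), which did not include 0. That interval takes reads as independent and compares partly different CpGs. With methylated sites within 100 bases of each other grouped, as few as 16 and 4 DNA fragments can give these methylated reads. Fragments that span longer gaps could make these counts lower. Sites listed in only 1 pool held 23 methylated of 146 Tet1-null reads and 1 of 103 WT reads. Autosomes at every listed site were at 4.08% in the Tet1-null pool and 3.41% in the WT pool. Unlike at shared sites, these values lie outside the intervals of the 3 regions. The Tet1-null value lies below its interval of 5.67 to 10.4%, and the WT value just above its interval of 0.621 to 3.35%. CpGs of chrM, commonly used to gauge incomplete conversion, were read as methylated at 1.29% in the Tet1-null pool and 1.66% in the WT pool. The interval of the 3 regions lies above the chrM level in the Tet1-null pool and includes it in the WT pool. Among shared sites, 39, 40 and 37 of the Tet1-null pool and 40, 41 and 44 of the WT pool had no methylated read at H19, Dlk1-Meg3 and Rasgrf1. Sites were thin, with a median of 1 to 3 reads, and 0, 3 and 1 sites of the 3 regions had 3 reads in both pools.

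**Figure D1:**
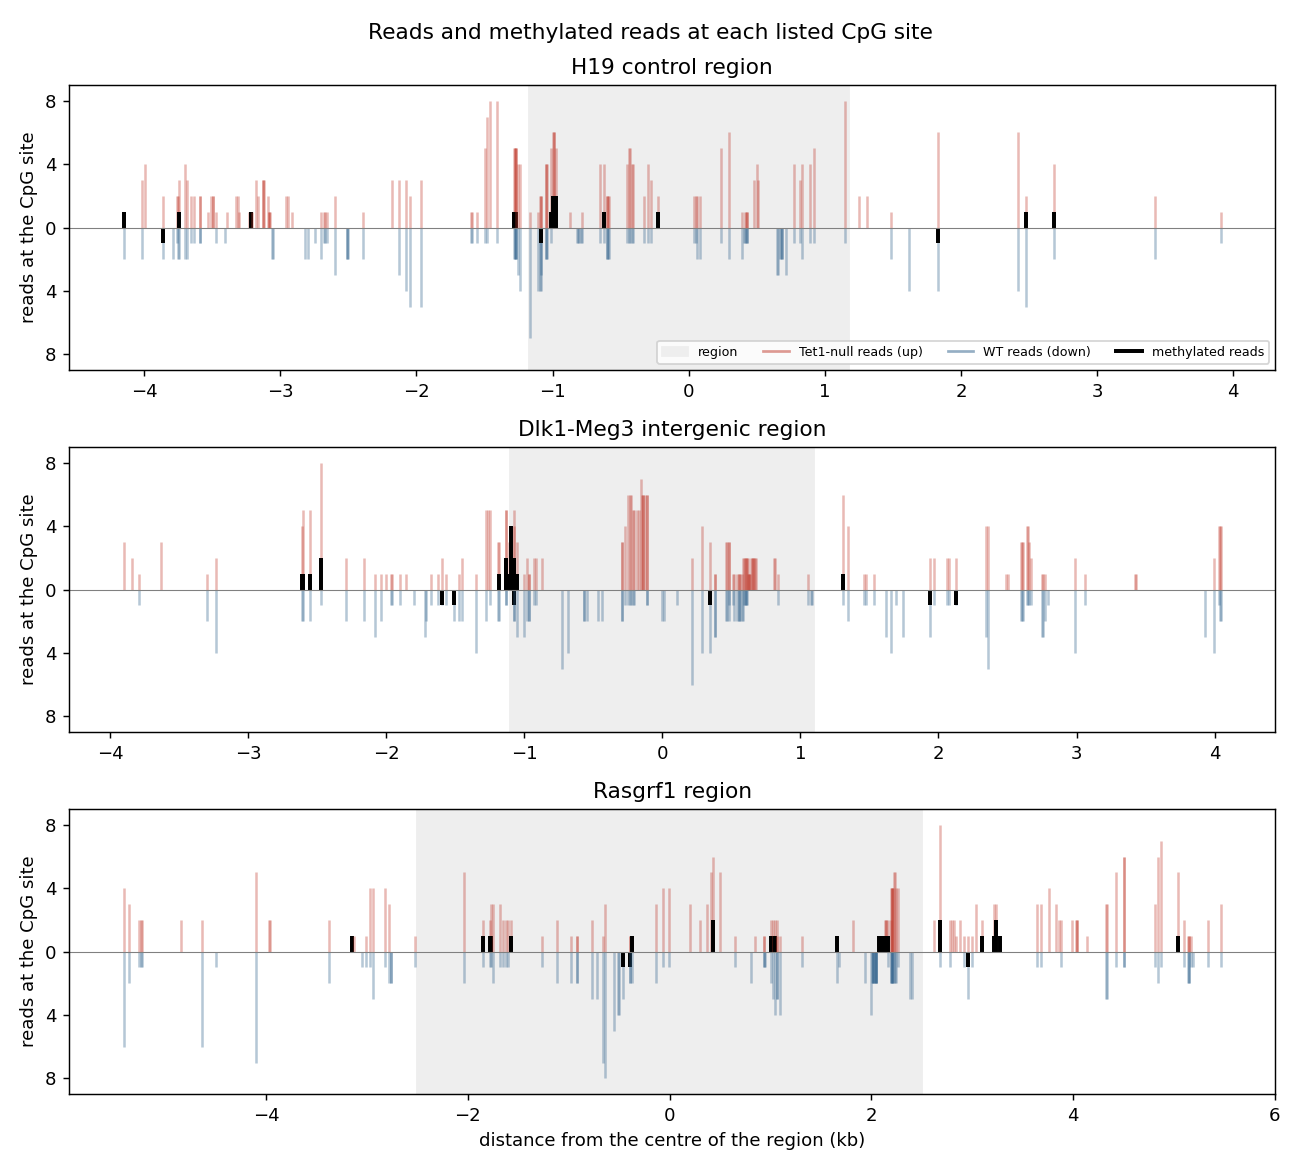
Reads at each listed CpG site in and beside the H19, Dlk1-Meg3 and Rasgrf1 regions (shaded), by distance from the region's centre in kb, with 3000 bases shown on both sides. Bars upward are Tet1-null reads, bars downward WT reads, and the black part of a bar is the methylated reads: no site in a region held over 8 reads in either pool, and black bars gather in few places.

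The H19 control region, which holds CTCF sites, held 2 methylated of 125 Tet1-null reads and 1 of 70 WT reads at its 41 shared sites. Its level was 1.60% in the Tet1-null pool (0.440 to 5.65%) and 1.43% in the WT pool (0.253 to 7.66%), a difference of 0.17 points (-6.17 to 4.39). The pools could not be told apart at these sites. The 2 Tet1-null methylated reads lay 166 and 552 bases from the start of the region, at sites with 1 of 5 and 1 of 4 reads. The WT methylated read lay at 93 bases, at a site with 1 of 3 WT reads and 0 of 2 Tet1-null reads. Both pools were thus without a methylated read in the stretch beyond the first kilobase at shared sites. The 3 sites with most reads, at 2323, 6 and 1467 bases, held 0 of 8, 0 of 1 and 0 of 6 methylated reads in the Tet1-null pool and 0 of 1, 0 of 7 and 0 of 2 in the WT pool. Of its stretches of 250 bases, 2 had 10 reads in each pool: the first held 1 methylated of 25 Tet1-null reads and 1 of 29 WT reads, and that from 500 to 749 bases 1 of 30 and 0 of 13.

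Sites that only the Tet1-null pool listed held more methylated reads at H19. At 9 such sites 9 of 36 reads were methylated, 25% (13.8 to 41.1%), against 0 of 22 reads at the 12 sites that only the WT pool listed, where a count of 0 allows up to 13.6%. Over every listed site the region was at 6.83% in the Tet1-null pool, 11 of 161 reads, and at 1.09% in the WT pool, 1 of 92 reads, a difference of 5.75 points (0.0848 to 10.8), with p = 0.0607 before adjustment and an adjusted p of 1 (Fisher's exact test, two-sided). Of those 9 methylated reads, 8 lay at 4 neighbouring sites between 180 and 197 bases from the start, which held 2 methylated reads each of 5 or 6 and no WT read. As few as 2 DNA fragments can give that patch, so its reads are not independent.

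The Dlk1-Meg3 intergenic region, which controls Dlk1, an epidermal growth factor-like membrane protein, and the noncoding RNA Meg3, held 5 methylated of 115 Tet1-null reads and 2 of 79 WT reads. That is 4.35% in the Tet1-null pool (1.87 to 9.78%) and 2.53% in the WT pool (0.697 to 8.77%), with a difference of 1.82 points (-4.89 to 7.55). All methylated Tet1-null reads lay within the first 46 bases of the region. There the sites at 23, 28 and 46 bases held 2 of 4, 2 of 5 and 1 of 3 methylated Tet1-null reads, against 1 of 2, 0 of 2 and 0 of 3 methylated WT reads. A site at 4 bases, with no WT read, was methylated in 4 of 4 Tet1-null reads. Over every listed site 9 of 186 Tet1-null reads, 4.84%, and 2 of 105 WT reads, 1.90%, were methylated, a difference of 2.93 points (-2.35 to 7.26) that included 0, with p = 0.338 before adjustment (Fisher's exact test). The other WT methylated read was far from there, at 1445 bases, at a site with 1 of 4 WT reads and 0 of 3 Tet1-null reads.

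The first 250 bases were the most methylated of the 4 stretches of this region with 10 reads in each pool. They held 5 methylated of 21 Tet1-null reads, 23.8% (10.6 to 45.1%), and 1 of 18 WT reads, 5.56% (0.988 to 25.8%), a difference of 18.3 points (-5.87 to 40.0) that included 0. By contrast the stretch from 750 to 999 bases had 0 of 50 methylated Tet1-null reads and 0 of 12 WT reads, which allows up to 6% in the Tet1-null pool and 25% in the WT pool. Of the 3 sites of the region with most reads, those at 1312 and 1388 bases held 0 of 2 and 0 of 4 methylated Tet1-null reads and 0 of 6 and 0 of 4 WT reads. The other was the site at 28 bases, with 2 of 5 methylated Tet1-null reads and 0 of 2 WT reads. With 500 bases taken off both ends, the whole region held 0 of 84 methylated Tet1-null reads and 1 of 55 WT reads. The difference of the Dlk1-Meg3 region thus lay at its edge and turned to -1.82 points without it. Methylated reads also lay just outside it: the 1 kb window from 110764001 to 110765000, which straddles the edge, held 10 methylated of 50 Tet1-null reads and 2 of 31 WT reads (20% and 6.45%), with p = 0.118 before adjustment (Fisher's exact test, two-sided) and an adjusted p of 1.

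The Rasgrf1 region, known for a block of tandem repeats beside its methylated stretch, had the greatest difference of the 3 regions. It held 8 methylated of 107 Tet1-null reads and 1 of 93 WT reads, a level of 7.48% in the Tet1-null pool (3.84 to 14.1%) and 1.08% in the WT pool (0.190 to 5.84%). The difference was 6.40 points (0.404 to 13.05). At sites at least 100 bases apart, where 1 fragment is counted at fewer sites, the difference was 9.18 points on few reads. There 4 of 33 Tet1-null reads and 1 of 34 WT reads were methylated (p = 0.197 before adjustment, Fisher's exact test). Methylated Tet1-null reads stood at 8 of 45 shared sites, with 1 methylated read each, and the single WT one at 1 of 45. Unlike those of the Dlk1-Meg3 region they were spread over the interval, in 5 groups over 100 bases apart between 654 and 4665 bases from its start. Its deepest sites, at 1865, 1841 and 459 bases, held 0 of 3, 0 of 1 and 0 of 5 methylated Tet1-null reads and 0 of 8, 0 of 7 and 0 of 2 WT reads. From 3500 to 3749 bases 2 of 10 Tet1-null reads and 0 of 19 WT reads were methylated, and from 4500 to 4749 bases 1 of 38 and 0 of 19. The longest stretch with no shared site ran from 2490 to 3152 bases.

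Every listed site gave a greater difference at Rasgrf1. Methylated reads were then 18 of 146 in the Tet1-null pool, 12.3% (7.94 to 18.6%), and 2 of 148 in the WT pool, 1.35% (0.371 to 4.79%), a difference of 10.98 points (5.40 to 17.4). At the 16 sites that only the Tet1-null pool listed, 10 of 39 reads were methylated, 25.6% (14.6 to 41.1%), against 1 of 55 reads at the 22 sites that only the WT pool listed, 1.82% (0.322 to 9.61%). Of the 10 methylated Tet1-null reads, 7 lay at sites between 4582 and 4651 bases, with 1 methylated read at each, which a single fragment can give. The remaining ones were 2 of 6 reads at 2934 bases and 1 of 2 at 933 bases. With methylated sites within 100 bases of each other taken as 1 group, and each group counted by its most methylated site, the fewest fragments that give the methylated reads of Rasgrf1 were 8 in the Tet1-null pool and 1 in the WT pool, of the Dlk1-Meg3 region 4 and 2, and of the H19 region 4 and 1. Over all 3 regions these were 16 and 4. Fragments that span gaps over 100 bases could make these counts lower.

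**Figure D2:**
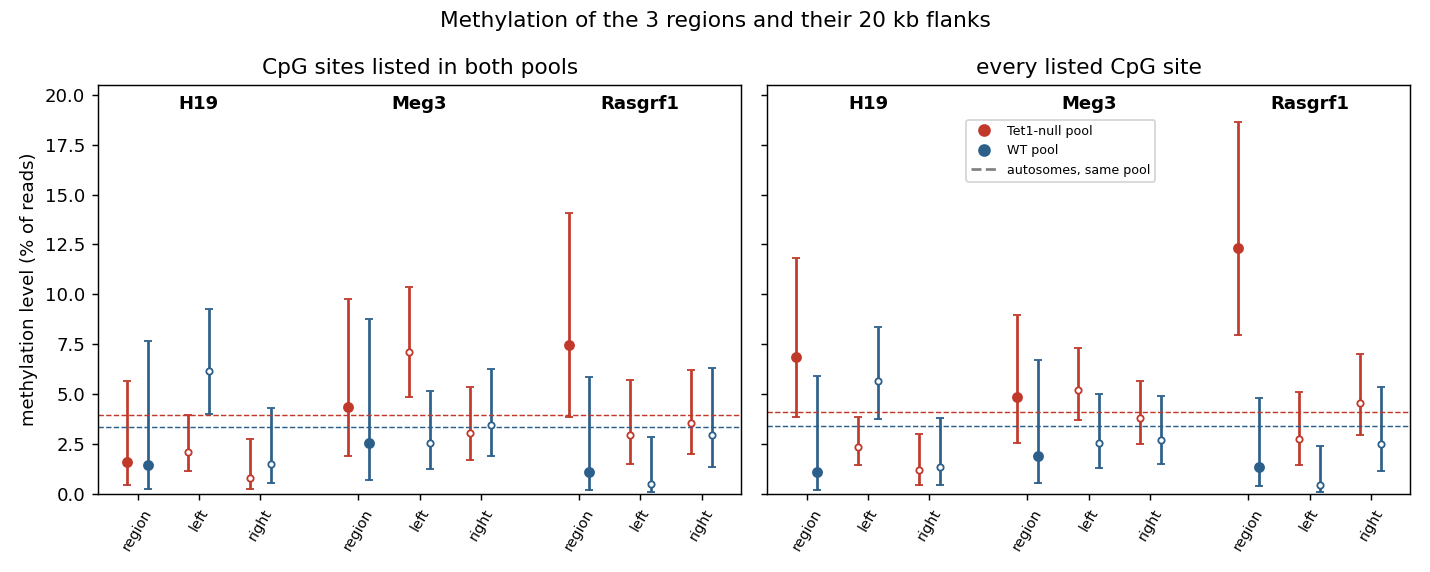
Methylation level in percent of reads for each region and its 20 kb flanks in the Tet1-null pool (left point of a pair) and the WT pool, at sites listed in both pools and at every listed site. Bars are Wilson 95% intervals and dashed lines the autosomes; the Rasgrf1 region of the Tet1-null pool, 7.48% and 12.3%, is the highest point in both panels.

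None of the 3 regions passed the test that was run over the whole genome. The reads of both pools were compared by Fisher's exact test, two-sided, over 278113 windows of 1 kb plus the 3 regions, and called at a Benjamini-Hochberg adjusted p under 0.05 with a difference of 20 points or more. It compares the reads of 2 pools and not the genotypes. Over the genome it called 0.155% of the 278116 features tested, with 0.100% higher in Tet1-null reads and 0.0547% lower, and it called 0 of the 3 regions. Before adjustment 7195 windows were higher and 4487 lower at p under 0.05, and 1 of the 3 regions, Rasgrf1, was too, with p = 0.0389 (Fisher's exact test), and its adjusted p was 1. For the H19 and Dlk1-Meg3 regions p was 1 and 0.703 before adjustment (Fisher's exact test). With every listed site the Rasgrf1 region had p = 1.28e-04 before adjustment and an adjusted p of 0.0658 (Fisher's exact test), a smaller difference than the rule asks. Adjusted p values at every listed site, here and for H19, rank such a region among windows summed over shared sites only. With the reads at hand, the fewest methylated Tet1-null reads that the rule would call were 27 of 125 at H19, 26 of 115 at Dlk1-Meg3 and 23 of 107 at Rasgrf1. The observed counts were 2, 5 and 8.

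The flanks of 20 kb on both sides also held few methylated reads. Over 705 shared sites they held 65 methylated of 1970 Tet1-null reads, 3.30% (2.60 to 4.18%), and 47 of 1490 WT reads, 3.15% (2.38 to 4.17%). The Rasgrf1 region of the Tet1-null pool stood 4.22 points above its flanks (0.168 to 10.9), at 7.48% against 3.26%. In the WT pool that region differed from its flanks by -0.68 points (-2.70 to 4.17). The H19 region differed from its flanks by 0.0012 points in the Tet1-null pool (-1.70 to 4.11) and by -2.94 points in the WT pool (-5.35 to 3.45). The Dlk1-Meg3 region differed by -0.66 points in the Tet1-null pool (-3.77 to 4.94) and by -0.48 points in the WT pool (-3.02 to 5.86). Of these 6 intervals, that of Rasgrf1 in the Tet1-null pool was the one that did not include 0. With every listed site the H19 region of the Tet1-null pool also stood above its flanks, by 4.89 points (1.73 to 9.93), at 6.83% against 1.94%.

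Single flanks went in both directions. The left flank of H19, toward lower coordinates, held 9 methylated of 426 Tet1-null reads and 20 of 326 WT reads, 2.11% and 6.13%, a difference of -4.02 points (-7.33 to -1.20). Of the WT reads, 7 lay in the 1 kb window from 149762001 to 149763000, which held 0 of 72 methylated Tet1-null reads and 7 of 54 WT reads (p = 0.0021 before adjustment, adjusted p = 0.322, Fisher's exact test). The left flank of the Dlk1-Meg3 region held 24 of 337 Tet1-null reads and 7 of 276 WT reads, 7.12% and 2.54%, a difference of 4.59 points (1.12 to 8.09). The flanks of Rasgrf1 were at 2.94% in the Tet1-null pool and 0.510% in the WT pool on the left, and at 3.54% and 2.96% on the right. Windows with enough reads numbered 1 over the H19 region and 8 in its flanks, 3 and 9 at Dlk1-Meg3, and 1 and 4 at Rasgrf1, and 0 of them were called.

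**Figure D3:**
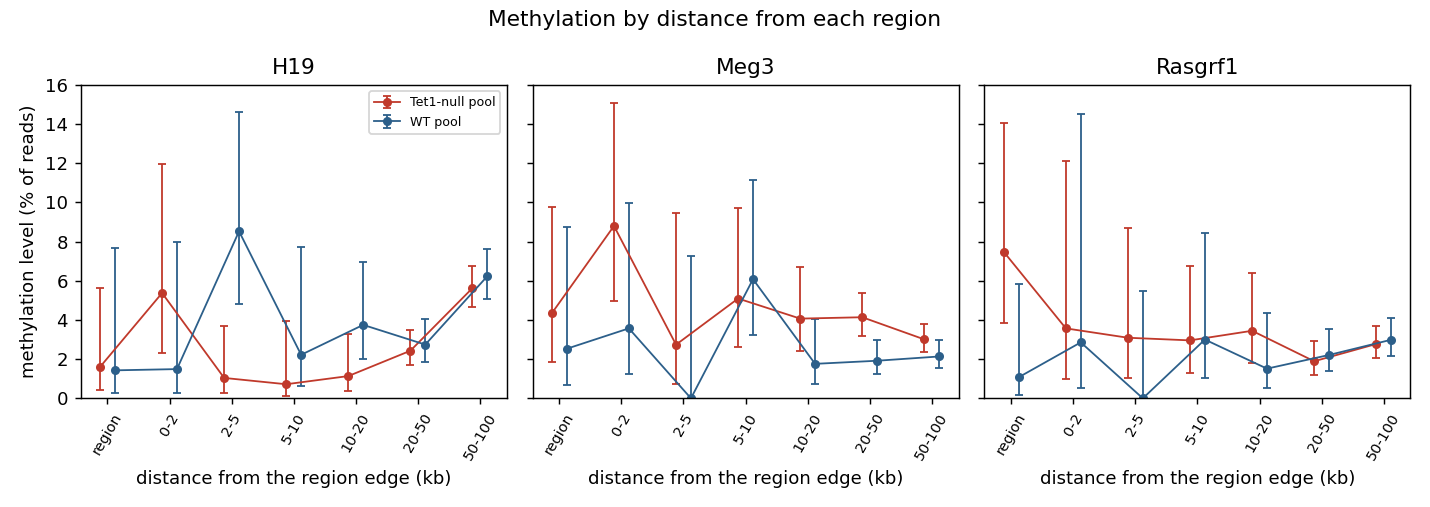
Methylation level in percent of reads in each region and in 6 classes of distance from its edge, both sides together, at sites listed in both pools. Red points are the Tet1-null pool (left) and blue points the WT pool, with Wilson 95% intervals; the intervals of the region overlap those of the nearest class in all 3 panels.

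At distances up to 100 kb the levels stayed low. From 0 to 2 kb the Dlk1-Meg3 surroundings held 11 methylated of 125 Tet1-null reads and 3 of 84 WT reads, 8.80% and 3.57%. From 20 to 50 kb around it they were at 4.14% in the Tet1-null pool and 1.92% in the WT pool, a difference of 2.22 points (0.786 to 3.65), and this was the one of 6 classes at that locus whose interval did not include 0. From 2 to 5 kb around H19, 2 of 192 Tet1-null reads and 11 of 129 WT reads were methylated, a difference of -7.49 points (-13.6 to -2.92). Around H19 the class from 50 to 100 kb was the highest for the Tet1-null pool, at 5.63% against 6.24% in the WT pool. Around Rasgrf1 the levels from 50 to 100 kb were 2.77% in the Tet1-null pool and 2.99% in the WT pool. No class around a region came to 10% in either pool.

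The regions were set beside all autosomal tiles of their own length with at least 5 shared sites and 20 reads in each pool. The H19 region of the Tet1-null pool lay above 43.8% and below 56.2% of 505424 tiles, and that of the WT pool above 51.5% and below 48.4%. The Dlk1-Meg3 region lay above 69.7% of tiles in the Tet1-null pool and above 59.5% in the WT pool. The Rasgrf1 region lay above 86.8% of 416727 tiles in the Tet1-null pool and above 38.2% in the WT pool. Its difference between the pools, 6.40 points, was exceeded by 8.44% of tiles. Many tiles were at 0%, and any region with a methylated read lies above all of these. For the length of H19 they were 40.0% of tiles in the Tet1-null pool and 50.7% in the WT pool. For Dlk1-Meg3 they were 40.9% and 51.6%, and for Rasgrf1 25.8% and 36.1%. These placings describe 2 pools of reads, and tiles with few reads spread more widely by counting error alone.

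**Figure D4:**
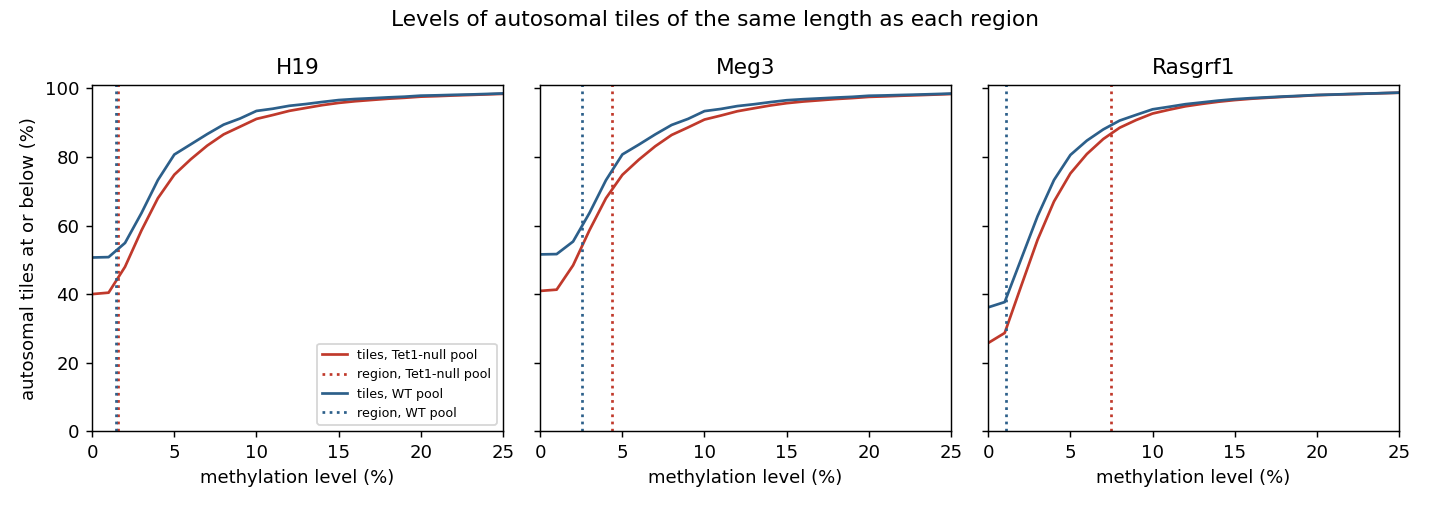
Share of autosomal tiles of the same length as each region whose methylation level, in percent of reads, is at or below the value on the x axis, in the Tet1-null pool (red) and the WT pool (blue). Dotted lines mark the region itself: at Rasgrf1 the red line, at 7.48%, stands to the right of the blue one at 1.08%, and at H19 both stand together.

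All 3 regions listed more CpG positions than most of these tiles, a count that depends on read coverage as well as on sequence. They listed 62, 78 and 83 positions in either pool, 26.4, 35.4 and 16.6 per kb, more than 97.7%, 98.8% and 95.3% of the tiles of their length. Tiles with at least as many positions had a median level of 1.74% in the Tet1-null pool and 1.82% in the WT pool for the length of H19. For the length of Rasgrf1 these medians were 2.36% and 2.04%. Among tiles with at least as many listed positions the Rasgrf1 region lay above 92.8% in the Tet1-null pool and above 28.0% in the WT pool. The Dlk1-Meg3 region lay above 87.0% and 62.2%. The H19 region lay above 47.5% and 42.1%.

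Few methylated reads were found at the starts of the genes tied to the regions and of Zdbf2, at a depth that leaves wide limits. At every listed site of the start of Meg3 shown above, 12.1 kb from the intergenic region, 0 of 21 Tet1-null reads and 0 of 9 WT reads were methylated, which allows up to 14.3% and 33.3%. The Rasgrf1 start, 29.6 kb from its region, had 0 of 10 Tet1-null reads and 0 of 12 WT reads, which allows up to 30% and 25%. Dlk1, 73.9 kb away from the intergenic region, had 1 of 23 Tet1-null reads and 0 of 12 WT reads. Dio3, which encodes a thyroid hormone deiodinase at the far end of the same imprinted cluster, 750.3 kb away, had 0 of 21 Tet1-null reads and 0 of 9 WT reads. The Igf2 start shown above, 78.7 kb from the H19 region, had 0 of 17 Tet1-null reads and 2 of 24 WT reads, and 0 of 8 and 2 of 6 at sites listed in both pools. Another Igf2 start had 1 of 44 and 1 of 18. Zdbf2, a further paternally methylated locus, had 2 of 22 Tet1-null reads and 0 of 22 WT reads. Together these 7 starts held 4 methylated of 158 Tet1-null reads, 2.53% (0.989 to 6.33%), and 3 of 106 WT reads, 2.83% (0.967 to 7.99%). H19 and Ins2 were not placed.

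**Figure D5:**
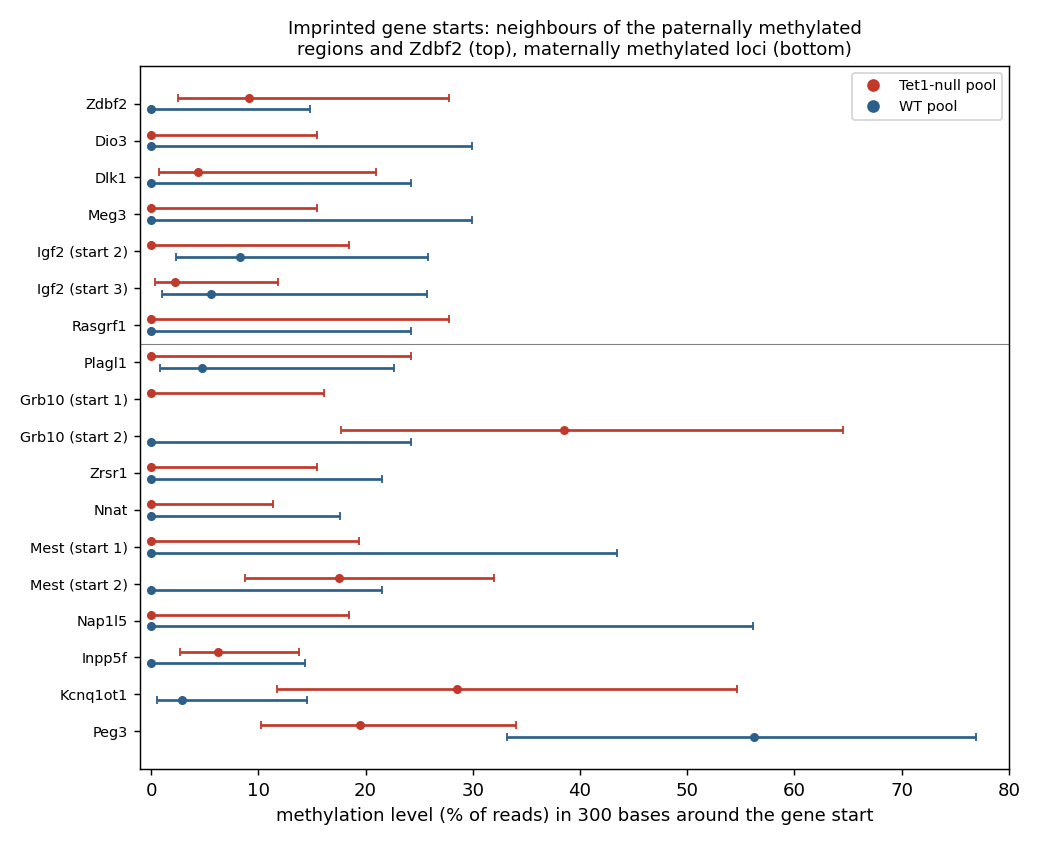
Methylation level in percent of reads over 300 bases around gene starts placed by CpG spacing, at every listed site, with the Tet1-null pool (red) above the WT pool (blue) in each row. Bars are Wilson 95% intervals; in the upper block no start passes 10%, and in the lower block of maternally methylated loci Peg3, Kcnq1ot1, Grb10 (start 2) and Mest (start 2) reach 17.5% or more in a pool.

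Maternally methylated loci, which carry the mark on the copy from the mother, held methylated reads at 5 of 11 placed starts in the Tet1-null pool and at 3 of the 10 with reads in the WT pool, against 3 and 2 of the 7 starts above. Over these starts, of 9 genes, 29 of 304 Tet1-null reads were methylated, 9.54% (6.72 to 13.4%), and 11 of 161 WT reads, 6.83% (3.86 to 11.8%). The difference of 2.71 points (-3.02 to 7.55) included 0, and it depended on Peg3, which held 9 of the 11 methylated WT reads. Without Peg3, left out after its values were seen, 21 of 263 Tet1-null reads and 2 of 145 WT reads were methylated, 7.98% and 1.38%, a difference of 6.61 points (2.18 to 10.6). Both intervals take reads as independent, although neighbouring sites can share a fragment. At the second start of Grb10, sites at -30, -36, -41 and -54 bases each held 1 of 1 methylated Tet1-null reads, which a single fragment can give. The methylated WT reads of Peg3 likewise lay at neighbouring sites, from -180 to -104 bases. The median start was at 3.13% in the Tet1-null pool and 0% in the WT pool, over the 10 starts with reads in both, against 0% in both pools for the 7 starts above. Those 7 starts lie 12.1 to 750.3 kb outside the 3 regions, except that of Zdbf2, which is on chromosome 1. Whether any of these 7 starts carries a paternal mark itself was not checked here, so this comparison does not show which marks were kept. Peg3, a zinc finger gene, had 8 methylated of 41 Tet1-null reads and 9 of 16 WT reads at every listed site, and 0 of 27 and 9 of 16 at sites listed in both pools. Kcnq1ot1, a noncoding RNA that silences its neighbours, had 4 of 14 and 1 of 35, and the second start of Grb10, which encodes an adaptor of growth factor receptors, 5 of 13 and 0 of 12. Whether these starts differ from the 3 paternally methylated regions was not tested.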

How the data were processed

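DNA methylation was measured by whole-genome bisulfite sequencing. Per the labels' protocols, DNA was tagged by Tn5 transposase, converted with a kit of Sigma (2 Tet1-null and 2 WT libraries) or Zymo (3 and 2), amplified and sequenced. Sequencing runs 1, 2 and 3 held 0, 2 and 3 Tet1-null libraries and 1, 1 and 2 WT libraries, and in tables pooled by genotype the effects of kit, run and genotype cannot be told apart. The authors deposited, per genotype, the methylation level of each CpG site as a fraction and the count of reads there. Level times reads was whole at every site within 0.0005 per read. Per the submitters' processing notes, the build is mm9 and a tool named is bedtools. How reads were aligned and duplicates treated is not given in the sources used here. The authors also deposited a filter script, which drops a read when non-CpG cytosines exceed 1.2% of its length. The Tet1-null pool held 46716079 reads at 16372728 sites (2.85 per site) and the WT pool 30386353 at 13730600 (2.21).

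Reads were summed over sites listed in both pools, with Python 3.11.15, numpy 2.4.6, scipy 1.17.1, pandas 2.3.3 and matplotlib 3.10.9. Table starts were taken as zero-based, and positions are given counted from 1. Intervals are Wilson (levels) or Newcombe (differences) at 95%, and limits for a count of 0 are 3 counts. They cover counting error only and take reads as independent. PCR reads carry no molecular identifiers and 1 read covers neighbouring sites, so the intervals can be too narrow even for counting error. Windows needed 5 shared sites and 20 reads in each pool, and the window test was tested on simulated data for the 278113 windows. Bins of 250 bases were named where each pool held 10 reads, the highest and the lowest. Of 23 imprinted genes listed, 18 had a RefSeq start sequence, and a start was placed with at least 5 listed CpGs, 4 more than at the next best place of the chromosome and no listed site off a CpG, a rule set with the data in view. This replaced an annotation of mm9, and starts were read over 300 bases at every listed site. The members and lists were chosen with earlier results of these data known. Bisulfite does not separate 5-methylcytosine from 5-hydroxymethylcytosine. The loss of Tet1 was not checked here.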

Additional observations from a re-analysis of the deposited data

Results flagged for a closer look

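Methylated reads at sites outside the main comparison stood out at 2 regions. At CpG sites that only the Tet1-null pool listed, 25% of 36 reads were methylated in the H19 control region and 25.6% of 39 reads in the Rasgrf1 region. At sites that only the WT pool listed the levels were 0% of 22 reads and 1.82% of 55 reads. The differences were 25 points (Newcombe 95% interval 6.36 to 41.1) at H19 and 23.8 points (10.3 to 39.3) at Rasgrf1, which compare different CpGs. These regions were flagged because their intervals did not include 0, but the intervals take reads as independent. Over every listed site, as few as 4 DNA fragments can give the 11 methylated Tet1-null reads of H19, and 8 fragments the 18 of Rasgrf1. At the Dlk1-Meg3 region 4 of 71 and 0 of 26 such reads were methylated, with an interval of -7.69 to 13.6 points.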

How the results depend on the processing

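No paired analysis was possible because each table pools the libraries of a genotype, and leaving out libraries was not run for the same reason. Read depth is a limit: no region had a site with 5 reads in both pools, so that minimum gave no value, and H19 had none with 3. The Dlk1-Meg3 difference of 1.82 points reversed to -0.70 points on sites at least 100 bases apart (2 of 25 against 2 of 23 reads) and to -1.82 points with boundaries 500 bases inward, which takes off the edge where its methylated Tet1-null reads lie (0 of 84 against 1 of 55). No region was called at every listed site, at spaced sites, with moved boundaries or by the quasi-binomial test. The lowest adjusted p was 0.0658 (Fisher's exact test), for Rasgrf1 at every listed site, ranked among windows of shared sites. Site means and subtraction of chrM gave values with no test. For Rasgrf1 the difference ranged from 0 points at the 1 site with 3 reads in both pools, where 3 and 8 reads were left, to 10.98 points at every listed site. Against its flanks the Rasgrf1 region at that minimum reversed to -1.68 points in the Tet1-null pool and moved to -2.86 points in the WT pool. For H19 in the Tet1-null pool the difference from the flanks moved to 4.89 points at every listed site. The quasi-binomial F test called 41 genome windows as higher with Tet1 lost and 23 as lower, against 279 and 152 by Fisher's exact test, and gave Rasgrf1 a p of 0.0369 before adjustment and 0.644 after it. Averaging site levels kept the direction of all 3 differences. Subtracting chrM, at 1.29% in the Tet1-null pool and 1.66% in the WT pool, could only raise them, so it is no check of direction. Leaving out sites over 13 reads and counting starts from 1 left the reads of the regions as they were, and adjusting over 2 kb windows or asking for 10 points bears on the call alone, so these show nothing of stability. Differences from flanks whose interval included 0 changed sign under some flank widths, such as -0.53 points for H19 in the Tet1-null pool with 50 kb.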
